A study of Mus musculus with 56 samples.

Results

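The transcriptomes of monocytes and macrophages sorted from skin wounds of mice without regulatory T cells (Tregs) were compared between day 7 and day 4 after injury. The comparison took the 4 libraries of Treg-depleted skin at day 7 and the 4 at day 4, 8 of the 56 libraries of the series, across the 12616 of 57010 listed genes whose counts were high enough for a test. The depleted animals were Foxp3(DTR/GFP) mice, abbreviated FDG, in which the diphtheria toxin receptor is driven by the Foxp3 gene, so that the toxin removes cells that express Foxp3, above all Tregs. The controls were wild-type C57BL/6J mice, and they too received the toxin. All were 10 weeks old, were given 20 ng/g diphtheria toxin by intraperitoneal injection from 2 days before injury, daily at first and every 2 days after the wound, for 1 week. Each had a single injury, here a full-thickness punch of the skin. Control skin gave 4 libraries at day 7 and 4 at day 4, and Treg-depleted muscle, injured by volumetric muscle loss, gave 3 at each day. Days after injury and doses of toxin increase together in this design, so the time since the wound and the length of depletion cannot be told apart. Nothing in the labels says that each library came from a separate animal, so the p-values measure the spread between libraries, which may be technical. Each library is a bulk sample of sorted cells, in which fewer cells of a type and less RNA per cell cannot be told apart.

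A skin wound first draws in monocytes from the blood, which express inflammatory cytokines and interferon-induced genes and then mature into macrophages. Under interleukin 4 and interleukin 13, cytokines of type 2 immunity, macrophages take on a state called alternative activation, marked in the mouse by Retnla, Mgl2 and the chemokine Ccl17. Tregs restrain both inflammatory and type 2 responses in skin, and the series sets macrophages of wounds without Tregs beside those of control wounds.

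Total counts were 3078042 to 4145340 per library at day 7 and 3065722 to 4988672 at day 4, and values are given in CPM, counts relative to library size after scaling by trimmed means (TMM). Means are given ± SD over 4 libraries and log2 changes ± SE. Pan-macrophage markers such as Lyz2, Cd68 and Csf1r summed to 11160 to 14510 CPM at day 7 and 13090 to 19060 at day 4, so the sorted cells carried the label's defining markers on both days. The toxin receptor's host gene Foxp3, which macrophages lack, had 3 counts in all at day 7 and 1 at day 4 in depleted skin, against 28 and 6 in control skin. An exact two-sided permutation test of CPM, depleted against control, gave p = 0.0857 at day 7 and p = 1 at day 4, where 0.0286 is the smallest possible. The ribosomal RNA gene Rn18s-rs5 took 15180 to 60830 CPM at day 7 and 12150 to 66240 at day 4, with the highest value in replicate 3 on both days. Counts are therefore also given with both replicate 3 libraries left out.

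At day 7 the cells sorted from depleted wounds had higher levels of some genes of alternative activation, antigen presentation, tissue residency and fibroblast matrix than at day 4. Some inflammatory, interferon-induced, monocyte and heat shock genes were lower. In each of these groups only part of the genes measured passed the test. In numbers, 330 of 12616 genes passed the threshold of 0.05 in edgeR (quasi-likelihood test, Benjamini-Hochberg adjustment), which is 2.62% of those tested. Of these, 172 genes (1.36%) were higher at day 7 and 158 (1.25%) lower. For 947 genes (7.51%) the 4 day 7 libraries did not overlap the 4 day 4 libraries, 499 (3.96%) with day 7 higher and 448 (3.55%) with day 7 lower. Genes named below from the largest changes and the lists had to show such separation, so it adds no evidence for them. Leaving out replicate 4 of day 7 left 205 calls, leaving out replicate 4 of day 4 left 210, and leaving out replicate 3 of both days left 296, of which 208 were among the 330. A dagger (†) marks a gene that shares sequence with another annotated gene, so that its reads could not be assigned with certainty.

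**Figure D1:**
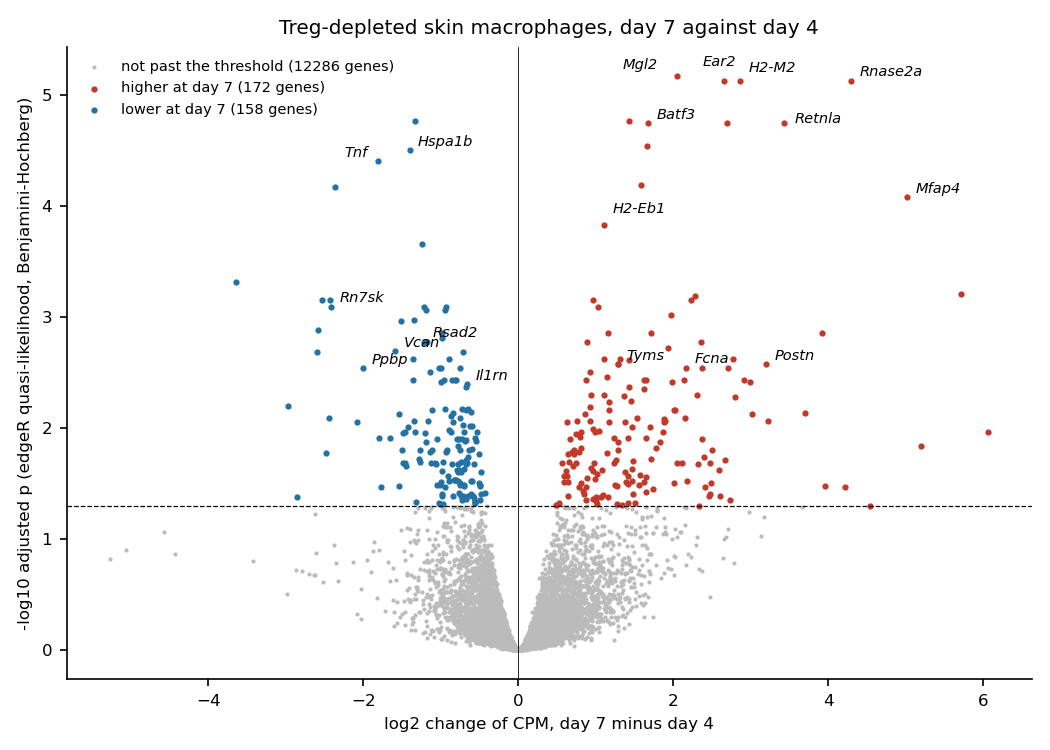
Each point is 1 of the 12616 genes tested, with the log2 change of CPM at day 7 minus day 4 in Treg-depleted skin on the horizontal axis and the negative log10 of the adjusted p on the vertical axis (edgeR's quasi-likelihood test, Benjamini-Hochberg). Red marks the 172 genes higher at day 7, blue the 158 lower, grey the 12286 not past the threshold of 0.05 (dashed line).

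For 6 genes that carry the main groups of change, the 250 bases before the RefSeq transcript start are shown (assembly GRCm38.p6), with the letters that match the motif named for each gene in capitals. Windows of 300 bases, from 250 before to 50 after the start, were searched on both strands. Also searched, and not capitalised, were the hypoxia response core ACGTG (in 21.8% of all windows), the cell cycle homology element TTTGAA (20.2%), the AP-1 site TGANTCA (8.97%) and the lysosomal CLEAR type site CACGTG (8.09%), which contains the hypoxia core. Retnla and Ccl17 stand for the alternative activation genes that rose, shown with matches to TTC, any 4 bases and GAA, the spacing bound by the interleukin 4 transducer STAT6. H2-Eb1 and H2-Aa stand for the MHC class II genes that rose, with CCAAT boxes, an element of their conserved promoter module. Rsad2 stands for the interferon-induced genes that fell, with GAAA, any 2 bases and GAAA, the core of the interferon-stimulated response element. Cxcl2 stands for the inflammatory chemokines that fell, with GGGA, any 2 bases and TTCC, an NF-kB type element. The windows lie at chr16:48842359-48842608 on the plus strand, chr8:94810203-94810452 on the plus strand, chr17:34305617-34305866 on the plus strand, chr17:34287824-34288073 on the minus strand, chr12:26456453-26456702 on the minus strand and chr5:90903649-90903898 on the plus strand.
Retnla: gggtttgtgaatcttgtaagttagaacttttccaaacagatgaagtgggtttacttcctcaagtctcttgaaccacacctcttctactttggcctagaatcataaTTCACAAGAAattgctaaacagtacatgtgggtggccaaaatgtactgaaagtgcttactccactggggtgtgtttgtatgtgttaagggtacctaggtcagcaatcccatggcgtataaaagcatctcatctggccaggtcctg
Ccl17: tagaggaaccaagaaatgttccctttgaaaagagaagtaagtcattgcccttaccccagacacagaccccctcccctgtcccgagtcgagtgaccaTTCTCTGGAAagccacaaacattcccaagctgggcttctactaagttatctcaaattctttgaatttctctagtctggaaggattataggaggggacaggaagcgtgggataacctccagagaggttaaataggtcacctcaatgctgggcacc
H2-Eb1: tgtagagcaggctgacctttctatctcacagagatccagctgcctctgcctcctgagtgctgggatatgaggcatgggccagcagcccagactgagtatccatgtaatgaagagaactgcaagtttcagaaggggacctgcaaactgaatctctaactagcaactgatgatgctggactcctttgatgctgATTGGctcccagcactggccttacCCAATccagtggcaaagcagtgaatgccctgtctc
H2-Aa: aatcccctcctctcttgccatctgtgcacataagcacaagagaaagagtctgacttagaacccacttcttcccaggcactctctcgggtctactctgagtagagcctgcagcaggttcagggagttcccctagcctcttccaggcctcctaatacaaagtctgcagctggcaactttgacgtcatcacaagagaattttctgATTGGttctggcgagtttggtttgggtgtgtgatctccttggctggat
Rsad2: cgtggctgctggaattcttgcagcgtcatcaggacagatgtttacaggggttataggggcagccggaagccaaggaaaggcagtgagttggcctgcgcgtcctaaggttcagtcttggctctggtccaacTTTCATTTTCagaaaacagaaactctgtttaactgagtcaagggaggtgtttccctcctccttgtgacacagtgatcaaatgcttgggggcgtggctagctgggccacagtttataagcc
Cxcl2: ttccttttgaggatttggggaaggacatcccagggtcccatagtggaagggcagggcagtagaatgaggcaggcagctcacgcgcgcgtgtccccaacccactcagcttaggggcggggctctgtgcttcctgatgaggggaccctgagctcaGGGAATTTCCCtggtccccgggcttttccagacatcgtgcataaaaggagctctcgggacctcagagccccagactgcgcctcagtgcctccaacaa

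The STAT6 type match in Retnla lay 145 to 136 bases before the start and the one in Ccl17 154 to 145 bases before it. Among the 6 alternative activation genes that rose, 3 windows held the STAT6 type motif (Ccl17, Pdcd1lg2 and Retnla), against 8.01% of the 27025 genes with a window. CCAAT was present in all 5 windows found for the 7 class II genes that rose and in 41.1% of all windows. The interferon-stimulated motif was in 4 of 5 windows of the type I interferon genes that fell and in 3.99% of all. The NF-kB type motif was in 3 of 6 windows of genes of the inflammatory list that fell (Csf1, Cxcl2 and the inhibitor gene Nfkbia) and in 1.63% of all. Over all measured members of each list, changed or not, the STAT6 type motif was in 4 of 12 windows and CCAAT in 7 of 10. The interferon-stimulated motif was in 11 of 21 and the NF-kB type motif in 6 of 22. Among all genes called, the STAT6 type motif was in 13.5% of windows of those higher and 11.2% of those lower at day 7. The searches for the STAT6 and NF-kB type motifs were added after the expression values had been seen. In Cxcl2 the capitals cover 2 overlapping matches, one on each strand. These are matches of letters, described with no test.

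Genes of alternative activation were higher at day 7, led by Retnla†, Ear2†, Mgl2† and Ccl17. Of 20 measured genes of this list 6 rose at day 7 (30%, where 1.36% of all genes tested were higher), 2 fell and 12 did not pass the test. The median change of the list was 0.64 on the log2 scale, against 0.0086 over all genes. The 6 that rose were Retnla†, Ear2†, Mgl2†, Ccl17, Irf4 and Pdcd1lg2, and 6 were higher with each single library left out and without replicate 3 of both days. For 3 of the 20 the change exceeded that of control skin past the threshold.

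Retnla†, which encodes the secreted protein RELM-alpha of type 2 inflammation, had 1414, 1199, 2190 and 2620 CPM in the day 7 libraries, against 171, 217, 158 and 142 CPM in the day 4 libraries. The lowest day 7 library was far above the highest day 4 library. Its mean was 1856 ± 664 CPM at day 7 and 172 ± 32.3 CPM at day 4 (SD, n = 4 each), a log2 change of 3.43 ± 0.32 (SE; edgeR's quasi-likelihood test, adjusted p = 1.78e-05). In control skin it averaged 372 CPM at day 7 and 237 CPM at day 4, a change that did not pass the test (log2 0.65 ± 0.30; edgeR, adjusted p = 0.344). The 2 changes differed by 2.79 ± 0.42 on the log2 scale (edgeR's quasi-likelihood test, adjusted p = 0.00507).

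Mgl2†, a C-type lectin (CD301b) of dermal macrophages and dendritic cells, had 432, 474, 357 and 513 CPM at day 7 and 84.8, 158, 96.1 and 91.3 CPM at day 4. The days did not overlap, although replicate 2 of day 4 stood above its group, with a log2 change of 2.05 ± 0.20 (edgeR, adjusted p = 6.69e-06). In control skin Mgl2† averaged 122 CPM at day 7 and 89.2 CPM at day 4, and the change was smaller there by 1.59 ± 0.27 (edgeR, adjusted p = 0.00507). Ear2†, an eosinophil-associated ribonuclease that alternatively activated mouse macrophages also express, had 159, 164, 243 and 353 CPM at day 7 and 38.0, 32.4, 30.1 and 45.6 CPM at day 4. The groups were far apart, with a log2 change of 2.65 ± 0.25 (edgeR, adjusted p = 7.41e-06), and the change exceeded that of control skin by 2.52 ± 0.35 (edgeR, adjusted p = 0.00167). Relatives of the same gene family rose as well. Ear1† averaged 48.9 ± 19.7 CPM at day 7 and 7.68 ± 1.69 CPM at day 4 (log2 change 2.69 ± 0.31; edgeR, adjusted p = 1.78e-05). Rnase2a† averaged 37.9 ± 17.2 CPM and 1.87 ± 1.43 CPM (log2 change 4.29 ± 0.43; edgeR, adjusted p = 7.41e-06). Both changes were larger than in control skin, by 2.59 and 5.84 on the log2 scale (edgeR, adjusted p = 0.00765 and 0.000252). Reads of these ribonuclease genes may have been exchanged among the family, and Ear1† was also listed as an eosinophil gene. The 20 listed markers of mast cells, basophils and eosinophils, 17 of them high enough to test, summed to 264 to 661 CPM at day 7 and 224 to 803 CPM at day 4. This sum takes the 3 cell types together and is not a measure of eosinophils alone. Ear1† was the only one of the 17 past the threshold. The other eosinophil genes Siglecf and Ccr3 averaged 3.38 and 1.68 CPM at day 7 and 8.19 and 8.94 CPM at day 4, and Epx was too low to test.

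Ccl17, a chemokine that attracts CCR4-bearing T cells, had 814, 1045, 412 and 537 CPM at day 7 and 153, 264, 106 and 109 CPM at day 4. The groups did not overlap and the log2 change was 2.15 ± 0.39 (edgeR, adjusted p = 0.00815). In control skin Ccl17 averaged 68.0 CPM at day 7 and 53.9 CPM at day 4, but the difference between the changes, 1.81 ± 0.54, did not pass the test (edgeR, adjusted p = 0.166). Irf4, the transcription factor that drives much of this programme in mouse macrophages and dendritic cells, rose to 14.0 ± 4.78 CPM at day 7, against 3.63 ± 1.73 CPM at day 4 (SD, n = 4 each; log2 change 1.98 ± 0.37; edgeR, adjusted p = 0.0038). Its difference from control skin fell just short of the threshold (log2 2.15 ± 0.53; edgeR, adjusted p = 0.0533). Batf3, a transcription factor of dendritic cells, averaged 100.2 ± 20.2 CPM at day 7 and 31.4 ± 4.40 CPM at day 4, a rise (log2 1.67 ± 0.19; edgeR, adjusted p = 1.78e-05) that was larger than in control skin by 1.61 ± 0.28 (edgeR, adjusted p = 0.00507). Aldh1a2, an enzyme of retinoic acid synthesis, averaged 7.07 ± 2.17 CPM at day 7 and 0.928 ± 0.937 CPM at day 4 (log2 change 2.99 ± 0.56; edgeR, adjusted p = 0.0038).

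Not every gene associated with alternative activation moved. Arg1, arginase 1, had 1003, 906, 610 and 347 CPM at day 7 and 298, 1106, 1190 and 963 CPM at day 4, with overlapping groups and a log2 change of -0.31 ± 0.45 (edgeR, adjusted p = 0.838). Mrc1, the mannose receptor, averaged 366 ± 44.9 CPM at day 7 and 375 ± 138 CPM at day 4 (edgeR, adjusted p = 0.973). The scavenger receptor Msr1 and the transglutaminase Tgm2, both on the list, fell at day 7. Msr1 averaged 128 ± 28.4 CPM at day 7 and 252 ± 26.5 CPM at day 4 (log2 change -0.98 ± 0.16; edgeR, adjusted p = 0.00138). Tgm2 averaged 92.2 ± 6.42 CPM and 171 ± 41.3 CPM (log2 change -0.89 ± 0.19; edgeR, adjusted p = 0.0104), and its call was lost without replicate 3 of both days.

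**Figure D2:**
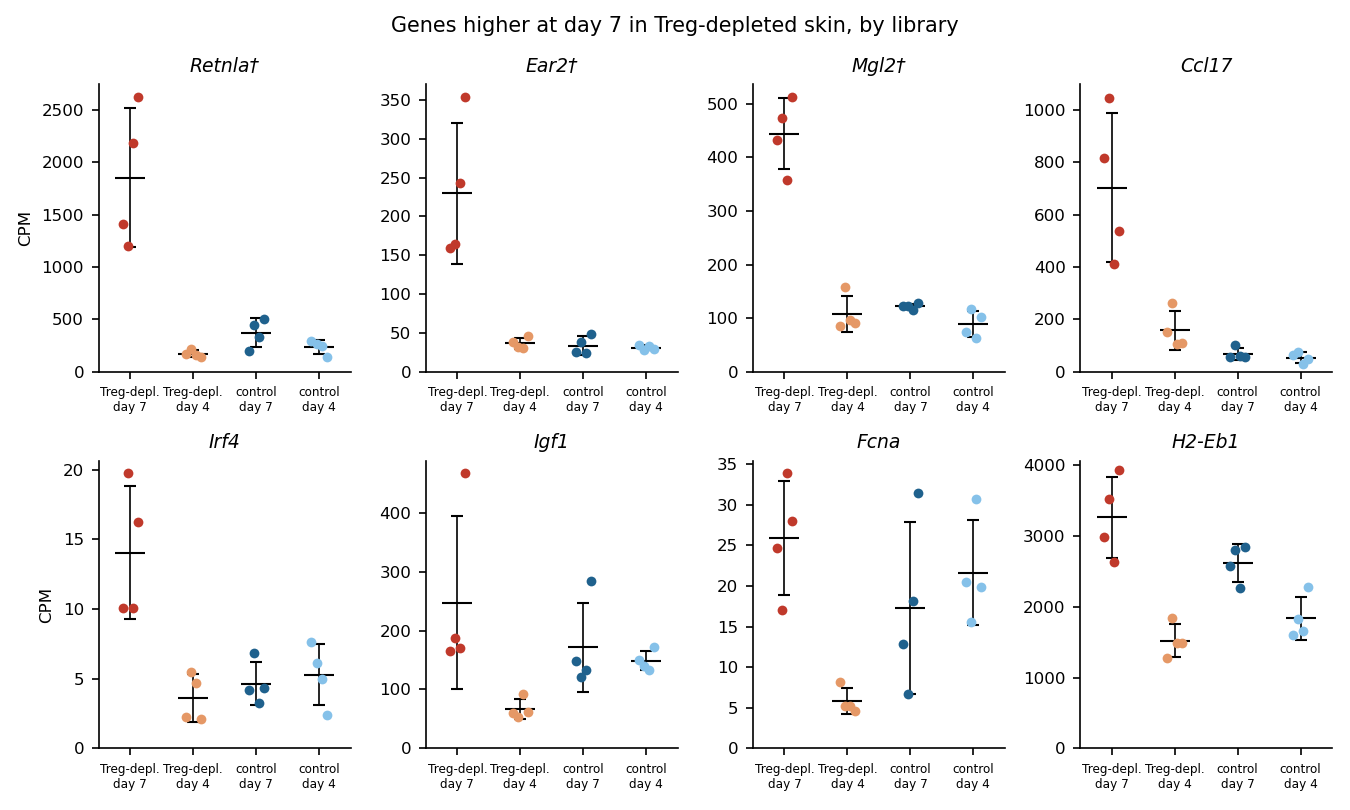
CPM of 8 genes that were higher at day 7 than at day 4 in Treg-depleted skin, with 1 point per library (n = 4 per group), a horizontal bar at the mean and whiskers of 1 SD, for depleted skin at days 7 and 4 and then control skin at days 7 and 4. Retnla†, Ear2†, Mgl2† and Ccl17 stand apart in the depleted day 7 libraries, while control skin at day 7 reached means of 372, 33.8, 122 and 68.0 CPM.

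Genes of MHC class II antigen presentation rose together. Of 15 measured genes 7 were higher at day 7 (46.7%), none was lower and 8 did not pass, with a median log2 change of 0.64, and 6 to 8 were higher with any single library left out. H2-Eb1, which encodes a beta chain, had 2986, 3521, 2626 and 3925 CPM at day 7 and 1270, 1839, 1482 and 1485 CPM at day 4. No day 7 library reached down to the day 4 values, and the log2 change was 1.10 ± 0.15 (edgeR's quasi-likelihood test, adjusted p = 0.000149). H2-Ab1 averaged 6226 ± 1174 CPM at day 7 and 3046 ± 520 CPM at day 4 (log2 change 1.03 ± 0.16; edgeR, adjusted p = 0.000802). The alpha chain H2-Aa averaged 3953 ± 541 CPM and 2022 ± 284 CPM (log2 change 0.97 ± 0.15; edgeR, adjusted p = 0.000702). Cd74, the invariant chain, averaged 5276 ± 616 CPM and 3464 ± 531 CPM, without overlap of the libraries, and missed the threshold (log2 change 0.61 ± 0.17; edgeR, adjusted p = 0.0518). In control skin these 4 genes had log2 changes of 0.32 to 0.51, none past the threshold, and none of the differences between depleted and control skin passed the test. H2-M2, a non-classical class I gene, was at 58.6 ± 17.2 CPM at day 7 and 8.13 ± 2.20 CPM at day 4 (log2 change 2.86 ± 0.30; edgeR, adjusted p = 7.41e-06). It rose in control skin too (log2 change 2.25 ± 0.35; edgeR, adjusted p = 0.00156).

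Markers of dendritic and Langerhans cells moved in the same direction as the class II genes. Of 11 measured markers 3 were higher at day 7 (27.3%, where 1.36% of all genes tested were higher) and none lower. All 15 listed markers, tested or not, summed to 472 to 730 CPM at day 7 and 300 to 570 CPM at day 4. The 3 were Batf3, Cd209a and Epcam, and 2 to 5 passed with single libraries left out, 5 of them without replicate 2 of day 4 and 2 without replicate 2 of day 7, without replicate 1, 3 or 4 of day 4, or without replicate 3 of both days. Epcam, an adhesion molecule of Langerhans cells and epithelia, averaged 8.50 ± 3.38 CPM at day 7 and 1.27 ± 1.39 CPM at day 4 (log2 change 2.80 ± 0.54; edgeR, adjusted p = 0.00527). It rose in control skin too (log2 change 2.78 ± 0.50; edgeR, adjusted p = 0.00373). The Langerhans marker Cd207 averaged 0.356 CPM at day 7 and 0.193 CPM at day 4, and the conventional dendritic cell genes Xcr1 and Clec9a were too low to test. The part of these cells in the rises of class II and alternative activation genes was not tested.

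Genes of tissue-resident macrophages rose in depleted skin at day 7, and for several the change was opposite in sign in control skin. Of 26 measured genes 5 were higher (19.2%) and none lower, with a median log2 change of 0.62 in depleted skin and -0.47 in control skin. Without replicate 1 of day 4 there were 3 higher and 2 lower, and without replicate 4 of day 4 there were 3 higher. Fcna, the lectin ficolin A of resident macrophages, had 24.7, 17.1, 33.9 and 28.0 CPM at day 7 and 8.21, 5.18, 5.25 and 4.58 CPM at day 4. The 2 days did not overlap (log2 change 2.16 ± 0.38; edgeR, adjusted p = 0.00284). In control skin Fcna averaged 17.3 CPM at day 7 and 21.7 CPM at day 4, and the changes differed by 2.50 ± 0.51 (edgeR, adjusted p = 0.0176). This call was lost without replicate 3 of control day 4, without replicate 3 of both depleted groups and with Rn18s-rs5 as a covariate. Fcgrt, the neonatal Fc receptor that recycles antibodies, averaged 243 ± 34.2 CPM at day 7 and 139.7 ± 25.7 CPM at day 4 (log2 change 0.80 ± 0.17; edgeR, adjusted p = 0.0119). Its difference from control skin was 1.23 ± 0.25 (edgeR, adjusted p = 0.0128), a call also lost with that covariate. Folr2, a folate receptor of resident macrophages, showed no called change in depleted skin (log2 0.45 ± 0.23; edgeR, adjusted p = 0.364) but fell in control skin (log2 -1.18 ± 0.23; edgeR, adjusted p = 0.0074). The changes differed by 1.63 ± 0.32 (edgeR, adjusted p = 0.013). Lyve1, a hyaluronan receptor of perivascular macrophages, had 60.1, 30.2, 68.3 and 26.1 CPM at day 7 and 18.9, 11.0, 21.3 and 21.2 CPM at day 4. Its libraries did not overlap, yet the change missed the threshold (log2 1.34 ± 0.47; edgeR, adjusted p = 0.169). Cx3cr1, the fractalkine receptor, was low and not called (edgeR, adjusted p = 0.981), at 18.9 ± 4.07 CPM at day 7 and 19.4 ± 7.94 CPM at day 4, where control skin had 142 and 113 CPM.

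Igf1, a growth factor of repair made by macrophages, had 165, 188, 170.3 and 467 CPM at day 7 and 59.7, 52.5, 91.9 and 62.4 CPM at day 4. Replicate 4 of day 7 was far above the other 3, and those 3 were all above day 4. The log2 change was 1.89 ± 0.35 (edgeR, adjusted p = 0.00864), and it was not shown to differ from control skin (log2 difference 1.69 ± 0.48; edgeR, adjusted p = 0.131). Mfge8, which bridges apoptotic cells to phagocytes, averaged 75.4 ± 24.3 CPM at day 7 and 30.4 ± 9.76 CPM at day 4 (log2 change 1.31 ± 0.23; edgeR, adjusted p = 0.00237). It rose by 1.25 ± 0.23 in control skin (edgeR, adjusted p = 0.00453). Hfe†, a regulator of iron sensing, averaged 77.1 ± 9.44 CPM and 44.0 ± 10.0 CPM (log2 change 0.81 ± 0.18; edgeR, adjusted p = 0.0108).

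Inflammatory cytokine and chemokine genes fell at day 7 in depleted skin. Of 36 measured genes 8 were lower (22.2%, where 1.25% of all genes tested were lower), none was higher and 28 did not pass, and the median log2 change was -0.76 in depleted skin and 0.21 in control skin. The number that fell was 4 without replicate 4 of day 4, 5 without replicate 1 of day 7 or without replicate 2 or 3 of day 4, and 14 without replicate 1 of day 4. The 8 that fell were not all cytokines or chemokines, and included Il1rn, Nfkbia and Tnfaip3, which encode inhibitors of inflammatory signalling. For 6 of the 36 the change was lower in depleted than in control skin past the threshold.

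Tnf, the cytokine tumour necrosis factor, had 41.4, 45.0, 61.4 and 51.6 CPM at day 7, against 105, 179, 202 and 216 CPM at day 4. Every day 7 library was below every day 4 library, and the log2 change was -1.81 ± 0.22 (edgeR's quasi-likelihood test, adjusted p = 3.92e-05). In control skin Tnf averaged 162 CPM at day 7 and 129 CPM at day 4, and the changes differed by -2.14 ± 0.30 (edgeR, adjusted p = 0.00136). Cxcl2†, a chemokine that draws neutrophils, had 3059, 3010, 3335 and 1880 CPM at day 7 and 3757, 7322, 6722 and 6586 CPM at day 4. Replicate 1 of day 4 lay close to the day 7 values and the other 3 well above them (log2 change -1.11 ± 0.22; edgeR, adjusted p = 0.00685). The difference from control skin, -1.28 ± 0.30, missed the threshold (edgeR, adjusted p = 0.0518). Clec4e, the receptor Mincle for microbial glycolipids and dead cells, had 359, 323, 324 and 136 CPM at day 7 and 533, 555, 673 and 805 CPM at day 4. It was lower in all 4 day 7 libraries (log2 change -1.17 ± 0.23; edgeR, adjusted p = 0.00863) and its change differed from that of control skin by -1.71 ± 0.33 (edgeR, adjusted p = 0.0128). Il1rn, which encodes the interleukin 1 receptor antagonist, averaged 303 ± 17.6 CPM at day 7 and 481 ± 71.3 CPM at day 4 (log2 change -0.66 ± 0.13; edgeR, adjusted p = 0.00397). The change differed from that of control skin by -0.87 ± 0.18 (edgeR, adjusted p = 0.0155). Il1b averaged 785 ± 182 CPM and 1314 ± 460 CPM and did not pass (log2 change -0.74 ± 0.21; edgeR, adjusted p = 0.0752). Nos2, the inducible nitric oxide synthase, was at 19.0 ± 11.7 CPM and 9.43 ± 6.53 CPM, also without a call (edgeR, adjusted p = 0.543).

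Early response and heat shock genes, which rise when tissue is dissociated as well as in activated macrophages, moved in the same direction as the inflammatory genes. Of 26 measured genes 5 were lower at day 7 (19.2%, where 1.25% of all genes tested were lower) and none higher, with a median log2 change of -0.38. Hspa1a†, an inducible heat shock protein of the HSP70 family, had 108, 109, 137 and 136 CPM at day 7 and 397, 268, 234 and 332 CPM at day 4. The 2 days were well apart (log2 change -1.33 ± 0.15; edgeR, adjusted p = 1.7e-05), and the change differed from that of control skin by -1.001 ± 0.21 (edgeR, adjusted p = 0.0167), a call lost with Rn18s-rs5 as a covariate. Its neighbour and near copy Hspa1b† averaged 40.3 ± 5.39 CPM at day 7 and 106 ± 23.6 CPM at day 4. Zfp36, which destabilises cytokine messages including that of Tnf, averaged 688 ± 124 CPM and 1217 ± 288 CPM (log2 change -0.82 ± 0.15; edgeR, adjusted p = 0.00369). The part of dissociation in the fall of the inflammatory genes was not tested. A noncoding RNA without a poly(A) tail fell as well. Rn7sk, the 7SK RNA that restrains transcription elongation, had 62.1, 101, 147 and 86.2 CPM at day 7 and 423, 771, 486 and 436 CPM at day 4 (log2 change -2.41 ± 0.32; edgeR, adjusted p = 0.000802). Control skin had 263, 265, 438 and 242 CPM of Rn7sk at day 7 and 750, 693, 303 and 493 CPM at day 4, with overlapping groups. Its reads were present although the libraries were primed on poly(A) tails. The part of such priming in other changes was not tested.

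Type I interferon antiviral genes were lower at day 7 in depleted skin and in control skin. All 29 measured genes had a negative change in depleted skin, 8 of them past the threshold (27.6%), with a median log2 change of -0.68, while in control skin 10 were lower with a median of -0.845. None of the 29 differed between depleted and control skin past the threshold, which does not show that the changes were equal. The number that fell in depleted skin was 3 without replicate 4 of day 7 and 4 without replicate 1 of day 4. Rsad2, the antiviral enzyme viperin, had 34.8, 51.3, 28.5 and 42.4 CPM at day 7 and 125, 84.9, 74.3 and 79.5 CPM at day 4. The groups did not overlap (log2 change -1.22 ± 0.20; edgeR's quasi-likelihood test, adjusted p = 0.00166), and control skin changed by -0.98 ± 0.20 (edgeR, adjusted p = 0.0095). Slfn5, of the Schlafen family, averaged 92.0 ± 12.9 CPM at day 7 and 165 ± 41.6 CPM at day 4 (log2 change -0.85 ± 0.17; edgeR, adjusted p = 0.00732), and control skin changed by -1.01 ± 0.17 (edgeR, adjusted p = 0.00241).

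Interferon gamma response genes passed the test less often than type I genes in depleted skin. Of 33 measured genes 1 was lower (3.03%) and none higher, and the median log2 change was -0.04, a sign that turned without replicate 3 of day 7 (0.0975) or replicate 1 of day 4 (0.0435). Control skin also had 1 lower and none higher, with a median of -0.43, and none of the 33 had a called difference between depleted and control skin. The gene that fell in depleted skin was Cxcl10, a ligand of CXCR3 on T cells, with 23.0, 45.4, 31.5 and 38.4 CPM at day 7 and 78.1, 74.2, 76.2 and 92.4 CPM at day 4. The groups were far apart (log2 change -1.22 ± 0.19; edgeR, adjusted p = 0.000802). The related ligand Cxcl9 was at 57.0 ± 23.6 CPM at day 7 and 50.2 ± 24.5 CPM at day 4 (edgeR, adjusted p = 0.899), where control skin had 3.07 and 4.46 CPM. The GTPase gene Gbp2 was at 109.5 ± 41.4 CPM and 130.2 ± 28.1 CPM at days 7 and 4 (edgeR, adjusted p = 0.655). Control skin had 14.8 and 23.8 CPM of Gbp2 on those days.

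Monocyte genes were lower at day 7. Of 18 measured genes 4 fell (22.2%), none rose and 17 had a negative change, with a median log2 change of -0.47. Vcan, the matrix proteoglycan versican of inflammatory monocytes, had 113, 63.8, 96.8 and 33.9 CPM at day 7 and 240, 196, 217 and 270.0 CPM at day 4. All day 7 libraries were below all day 4 libraries (log2 change -1.59 ± 0.26; edgeR, adjusted p = 0.00201), and control skin fell as well (log2 change -1.17 ± 0.26; edgeR, adjusted p = 0.0197). Ly6c2†, the antigen of classical monocytes, averaged 516 ± 200 CPM at day 7 and 1023 ± 356 CPM at day 4 (log2 change -0.99 ± 0.23; edgeR, adjusted p = 0.0242). Its call was lost without replicate 2, 3 or 4 of day 7, without replicate 1 of day 4, without replicate 3 of both days and in the fit of the 2 groups alone. Ccr2, the receptor with which monocytes leave the marrow, was not called (log2 change -0.12 ± 0.19; edgeR, adjusted p = 0.847), nor was the matrix protein gene Fn1 (log2 change 0.23 ± 0.21; edgeR, adjusted p = 0.698). Ppbp, a platelet chemokine precursor, averaged 10.5 ± 6.79 CPM at day 7 and 41.6 ± 13.2 CPM at day 4 (log2 change -2.01 ± 0.34; edgeR, adjusted p = 0.00286). It fell by 2.11 on the log2 scale in control skin.

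Several receptors and secreted proteins of activated macrophages fell too. Spp1†, the cytokine osteopontin, had 1855, 1619, 598 and 1436 CPM at day 7 and 3030, 3899, 5103 and 2756 CPM at day 4. The days did not overlap (log2 change -1.42 ± 0.28; edgeR, adjusted p = 0.00974). Control skin averaged 3666 CPM at day 7 and 3677 CPM at day 4 and the difference of changes was not called (edgeR, adjusted p = 0.106). The call was lost in the fit of the 2 depleted groups alone. Fcgr1, the high-affinity receptor for IgG, averaged 87.7 ± 12.2 CPM at day 7 and 169 ± 21.4 CPM at day 4 (log2 change -0.94 ± 0.15; edgeR, adjusted p = 0.000857). C5ar1, the receptor for complement fragment C5a, averaged 283 ± 46.4 CPM and 459 ± 92.8 CPM (log2 change -0.70 ± 0.15; edgeR, adjusted p = 0.0107). Tgfbi, a matrix protein induced by TGF-beta, averaged 1031 ± 175 CPM and 1647 ± 227 CPM (log2 change -0.68 ± 0.14; edgeR, adjusted p = 0.00685).

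Lipid-associated macrophage genes and complement C1q, abundant in wound macrophages, mostly did not pass the test. Trem2, a receptor for lipids, averaged 300.2 ± 65.8 CPM at day 7 and 266 ± 41.0 CPM at day 4 (edgeR, adjusted p = 0.753). Gpnmb, a membrane glycoprotein, averaged 118 ± 73.0 CPM and 111 ± 33.0 CPM (edgeR, adjusted p = 0.964). The lipid carrier Apoe averaged 8137 ± 2657 CPM and 5971 ± 1423 CPM (edgeR, adjusted p = 0.392). C1qa, a chain of complement C1q, averaged 549 ± 76.7 CPM and 423 ± 63.8 CPM (edgeR, adjusted p = 0.343). Of the 24 genes of the lipid-associated list 2 were higher and 1 lower. The number higher was 5 without replicate 3 of day 7 or with DESeq2, and 1 without replicate 4 of day 7 or replicate 3 or 4 of day 4. Metabolic genes mostly did not pass either. None of 38 nuclear respiratory chain genes passed the test, and of 33 glycolysis and hypoxia genes 1 was higher and 2 lower, where the number higher was 0 to 2 with single libraries left out. The genes that fell were Hif1a, the oxygen-regulated transcription factor, at 123 ± 24.2 CPM at day 7 and 213 ± 27.8 CPM at day 4 (log2 change -0.80 ± 0.15; edgeR, adjusted p = 0.00369), and Pkm†. Pkm†, pyruvate kinase, averaged 725 ± 113 CPM at day 7 and 1099 ± 128 CPM at day 4 (log2 change -0.60 ± 0.14; edgeR, adjusted p = 0.0155). Its call was lost without replicate 4 of day 7, without replicate 3 of both days and in the fit of the 2 groups alone. Ldha† and Vegfa, targets of hypoxia signalling, did not pass (edgeR, adjusted p = 0.912 and 0.446).

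**Figure D3:**
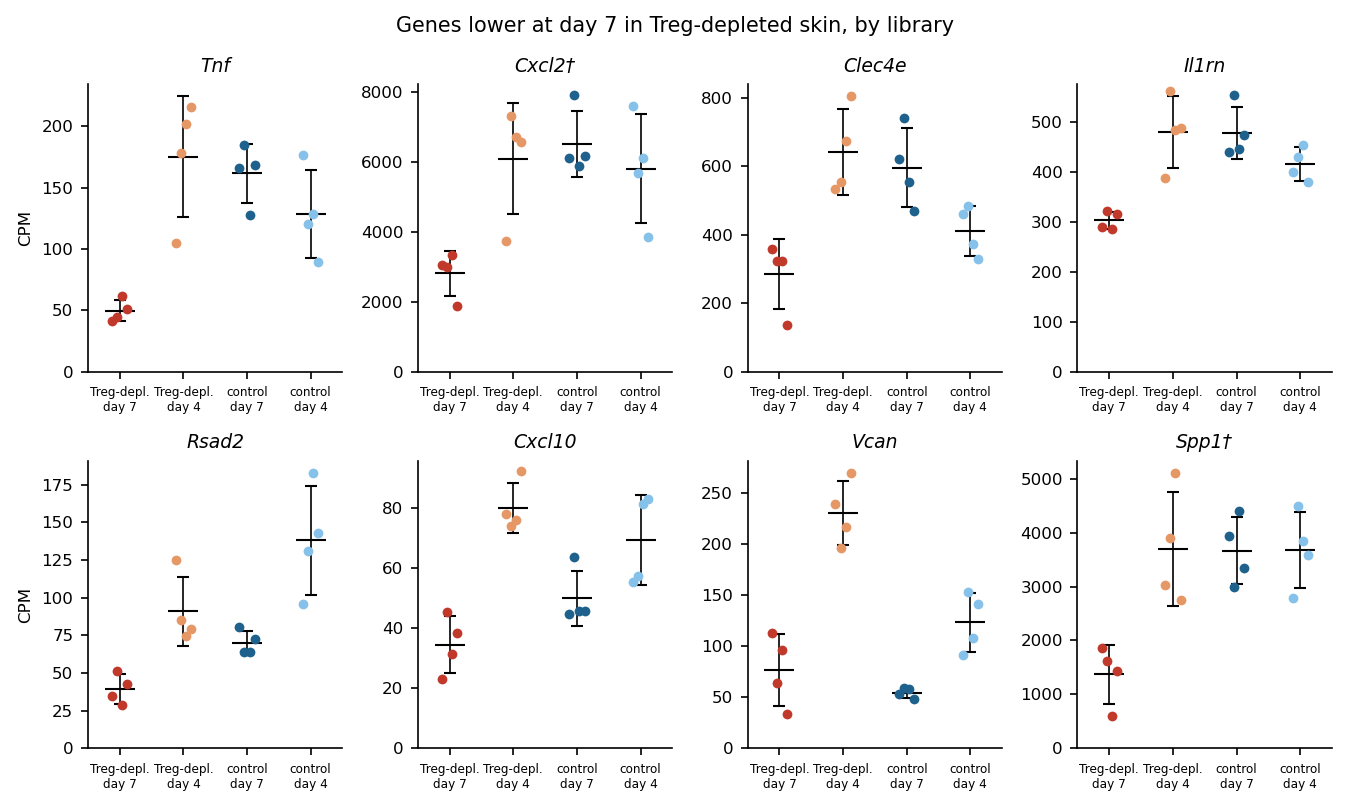
CPM of 8 genes that were lower at day 7 than at day 4 in Treg-depleted skin, with 1 point per library (n = 4 per group), a bar at the mean and whiskers of 1 SD, for depleted skin at days 7 and 4 and then control skin at days 7 and 4. Tnf, Cxcl2†, Clec4e, Il1rn and Spp1† are lowest in depleted skin at day 7, whereas Rsad2, Cxcl10 and Vcan are also lower at day 7 in control skin by mean.

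Cell cycle genes were higher at day 7 in depleted skin. Of 39 measured genes 5 rose (12.8%), none fell and 37 had a positive change, with a median log2 change of 0.79 in depleted skin and -0.39 in control skin. The count was 1 without replicate 4 of day 7 or replicate 4 of day 4, 2 without replicate 2 of day 4, 3 without replicate 3 of day 4 and 8 without replicate 1 of day 4. Tyms†, thymidylate synthase of DNA synthesis, had 33.4, 38.5, 29.2 and 32.0 CPM at day 7 and 14.2, 13.3, 16.3 and 11.0 CPM at day 4. The days were clearly apart (log2 change 1.28 ± 0.23; edgeR's quasi-likelihood test, adjusted p = 0.00263). The change exceeded that of control skin by 1.46 ± 0.32 (edgeR, adjusted p = 0.0267). This call was lost with 5 of 16 libraries left out singly (depleted replicate 2 of day 7 and replicates 2 and 4 of day 4, and control replicate 3 of each day). Top2a, a topoisomerase of dividing cells, averaged 33.5 ± 11.2 CPM at day 7 and 17.7 ± 4.09 CPM at day 4 (log2 change 0.93 ± 0.22; edgeR, adjusted p = 0.0227). This call was lost without replicate 4 of day 7, replicate 3 or 4 of day 4 or replicate 3 of both days, and in the fit of the 2 groups alone. In control skin Top2a fell (log2 change -0.92 ± 0.22; edgeR, adjusted p = 0.0246), and the changes differed by 1.86 ± 0.31 (edgeR, adjusted p = 0.00507), also with each library left out. The proliferation antigen Mki67 averaged 17.9 ± 9.04 CPM and 9.42 ± 3.34 CPM and did not pass (edgeR, adjusted p = 0.114).

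Collagen and matrix genes of fibroblasts rose at day 7. Of 20 measured markers of fibroblasts and mural cells 11 were higher (55%), none was lower and all 20 had a positive change, with a median log2 change of 1.60 in depleted skin and 0.79 in control skin. All 21 listed markers, with the untested Pdgfra, summed to 1305 to 1954 CPM at day 7 and 432 to 775 CPM at day 4 in depleted skin. In control skin they summed to 936 to 1906 CPM and 388 to 1180 CPM. Postn, the matricellular protein periostin, had 40.0, 60.5, 36.6 and 99.8 CPM at day 7 and 9.20, 8.10, 7.45 and 1.66 CPM at day 4. All day 7 libraries were above all day 4 libraries (log2 change 3.20 ± 0.50; edgeR, adjusted p = 0.00263). Col6a1, a chain of type VI collagen, averaged 24.1 ± 9.03 CPM at day 7 and 5.13 ± 0.271 CPM at day 4 (log2 change 2.23 ± 0.34; edgeR, adjusted p = 0.000704). Dpt, dermatopontin, averaged 11.2 ± 3.88 CPM and 2.13 ± 0.432 CPM (log2 change 2.37 ± 0.43; edgeR, adjusted p = 0.00284). Mfap4, a protein of elastic fibres that is not among the 20, had 10.9, 13.1, 6.88 and 22.8 CPM at day 7 and 0, 0, 1.10 and 0.416 CPM at day 4. With so few counts at day 4 its log2 change of 5.02 ± 0.63 (edgeR, adjusted p = 8.32e-05) rests on a near absence there. Its difference from control skin (log2 3.58 ± 0.82; edgeR, adjusted p = 0.038) held with 4 of 16 libraries left out singly and was lost by limma-voom and with the Rn18s-rs5 covariate. The fibroblast gene Pdgfra was too low to test, Pdgfrb averaged 1.57 CPM at day 7 and 1.56 CPM at day 4, and none of the 20 had a called difference from control skin. The part of fibroblasts among the sorted cells in these rises was not tested.

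Among the other cell types no marker passed the test in depleted skin. These were 17 neutrophil markers (300 to 1709 CPM in sum at day 7 and 603 to 787 CPM at day 4), 8 T and NK cell markers (36.9 to 63.1 and 15.4 to 46.3 CPM) and 3 B cell markers. They also included 7 keratinocyte markers (16.1 to 24.6 and 14.3 to 35.2 CPM), 4 endothelial markers and 5 erythroid markers (112 to 448 and 194 to 6112 CPM). The sums also take in listed markers too low to test. They cover 21 neutrophil, 23 T and NK cell, 17 keratinocyte and 6 erythroid genes. The basophil protease Mcpt8 averaged 318 CPM at day 7 and 329 CPM at day 4 in depleted skin, against 19.4 and 3.18 CPM in control skin.

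**Figure D4:**
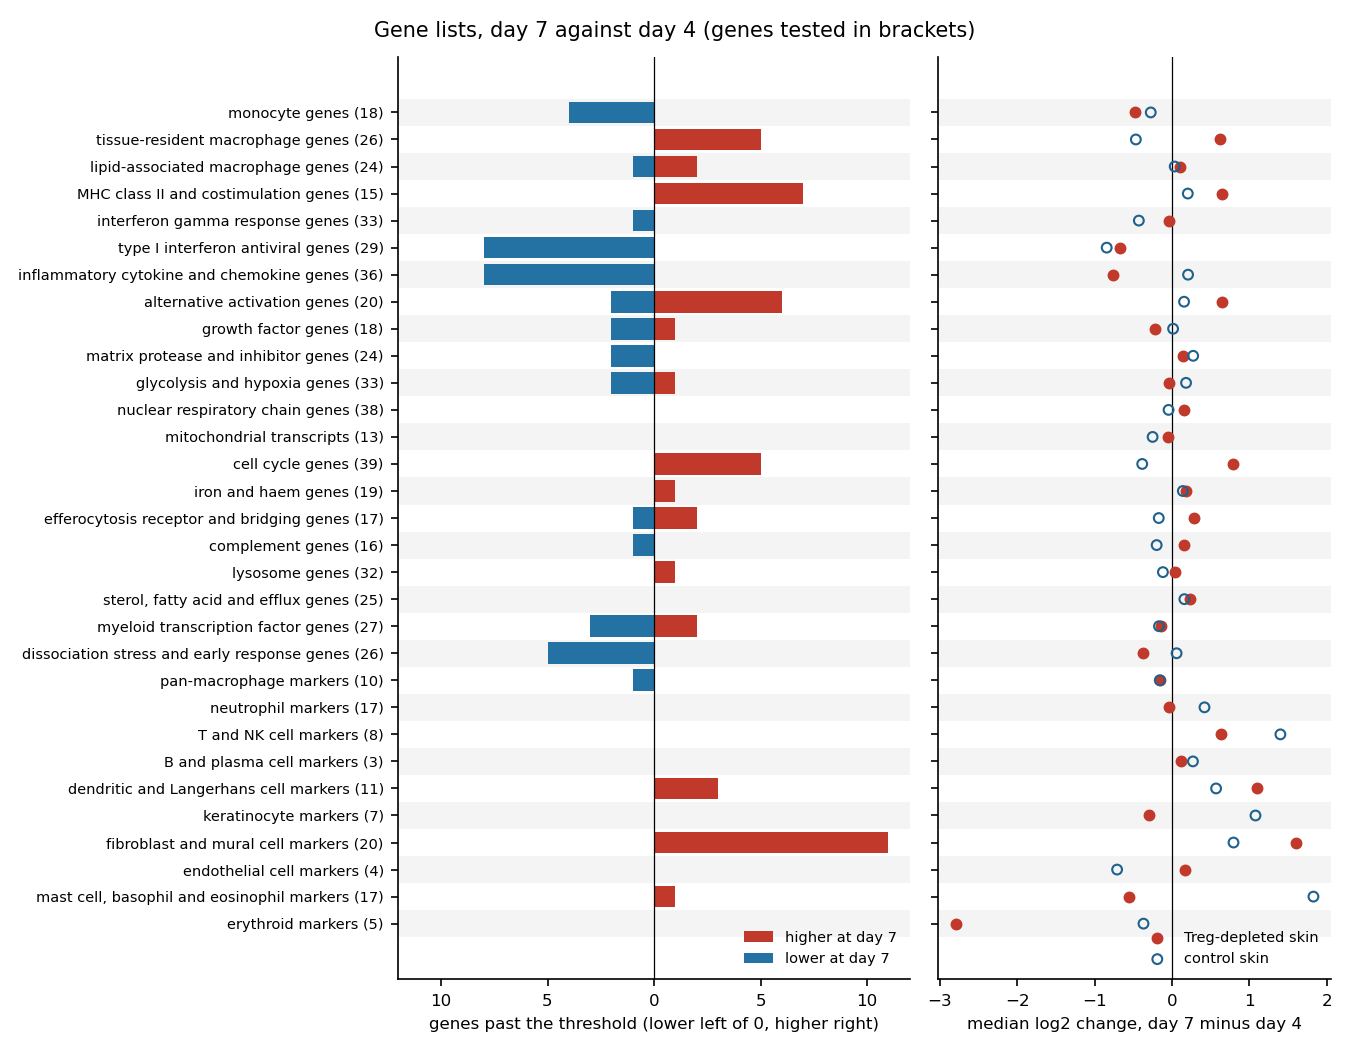
For each gene list (genes tested in brackets) the left panel counts the genes higher at day 7 (red, right of 0) and lower (blue, left of 0) in Treg-depleted skin, and the right panel gives the median log2 change at day 7 minus day 4 in Treg-depleted skin (filled) and control skin (open). Fibroblast markers have the most rises (11 of 20), type I interferon and inflammatory genes the most falls (8 of 29 and 8 of 36), and the cell cycle list has medians of opposite sign in depleted and control skin.

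The time courses of depleted and control skin shared few calls. Control skin had 286 calls (2.27%), 179 (1.42%) higher and 107 (0.848%) lower at day 7. Of the depleted calls 32 were also called in the same direction in control skin (9.7% of the depleted and 11.2% of the control calls), 7 of them higher and 25 lower, and 4 were called in opposite directions. A gene called in 1 of the 2 courses is not thereby shown to differ between them. The difference of the changes itself passed the test for 107 of 12616 genes (0.848%), 33 (0.262%) with a higher and 74 (0.587%) with a lower change in depleted skin. It had 162 calls without replicate 3 of depleted day 7, 71 without replicate 4 of depleted day 7, 68 without replicate 2 of control day 7, 69 without replicate 3 of control day 4 and 170 without replicate 3 of both depleted groups. Of the 330 depleted calls 43 had a called difference, 25 that rose more and 18 that fell more than in control skin.

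The 33 higher differences included Retnla†, Mgl2†, Ear1†, Ear2†, Rnase2a†, Batf3, Fcna, Fcgrt, Folr2, Tyms† and Top2a, and the 74 lower ones Tnf, Clec4e, Il1rn and Hspa1a†. The largest lower differences by the naming rule included genes that rose in control skin with no called change in depleted skin. P2rx1, a channel gated by ATP, had 2.88, 2.30, 0.492 and 3.06 CPM in depleted skin at day 7 and 8.70, 9.72, 2.49 and 3.54 CPM at day 4, with overlapping groups. Control skin had 18.2, 28.2, 11.7 and 9.72 CPM at day 7 and 3.80, 2.05, 1.40 and 1.71 CPM at day 4. The changes differed by -4.37 ± 0.70 on the log2 scale (edgeR's quasi-likelihood test, adjusted p = 0.00424). Sytl1, a vesicle trafficking gene, averaged 1.10 CPM and 2.49 CPM in depleted skin and 11.2 CPM and 1.00 CPM in control skin at days 7 and 4 (difference -4.55 ± 0.82; edgeR, adjusted p = 0.00802). Of the 17 mast cell, basophil and eosinophil markers 1 was higher at day 7 in control skin (Il5ra, a receptor chain for interleukin 5, at 4.25 CPM at day 7 and 0.395 CPM at day 4) and none lower, with a median log2 change of 1.83. The difference of changes, depleted minus control, passed the test for some of these 17, 1 higher and 2 lower, with a median of -2.60. Of the 17 neutrophil markers 1 was higher and 2 were lower at day 7 in control skin, with a median of 0.42. The part of these cells in the differences was not tested.

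**Figure D5:**
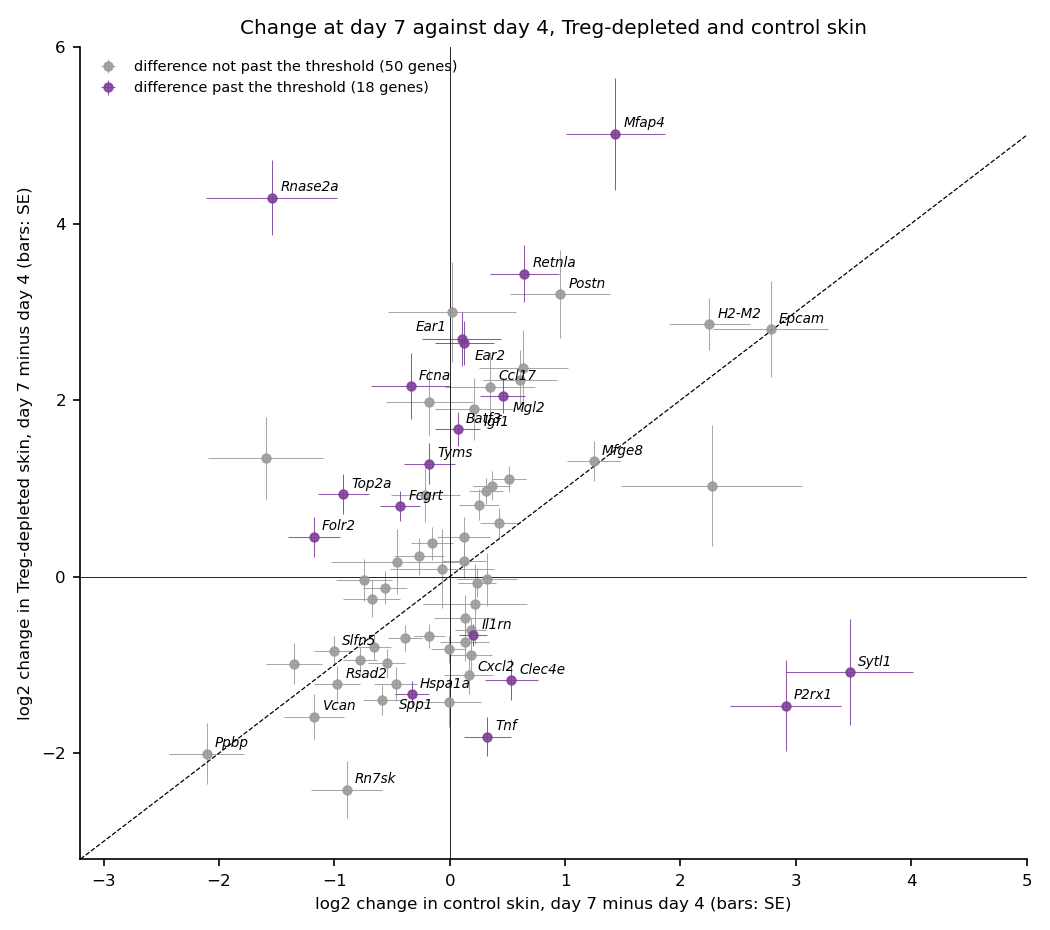
Each point is 1 of 68 genes printed here, with the log2 change at day 7 minus day 4 in control skin on the horizontal axis and in Treg-depleted skin on the vertical axis (bars, SE; dashed line, equal changes). Purple marks the 18 genes whose changes differed past the threshold. Retnla, Ear2, Mgl2 and Batf3 lie above the line near 0 in control skin, Tnf, Clec4e and Il1rn below it, and Rsad2, Slfn5, Vcan and Ppbp close to it at negative values.

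Against the same interval in Treg-depleted muscle, the change in depleted skin differed for 1306 of 13730 genes tested (9.51%), 518 (3.77%) with a higher and 788 (5.74%) with a lower change in skin. Muscle alone had 2308 calls (16.8%), 1358 (9.89%) higher and 950 (6.92%) lower at day 7. Scaling by library size alone gave a median difference of 0.15 on the log2 scale, against -0.0042 with TMM, and 815 higher and 605 lower. Retnla†, Ear2† and Mgl2† rose in both tissues, by more in muscle. Ear2† rose by 2.65 in skin and by 5.01 in muscle on the log2 scale (difference -2.36 ± 0.42; edgeR's quasi-likelihood test, adjusted p = 0.000498). Mgl2† rose by 2.05 and 3.31 (difference -1.27 ± 0.31; edgeR, adjusted p = 0.00827), a call lost in the fit of all 12 groups of bone, muscle and skin. Retnla† averaged 11480 CPM at day 7 and 307 CPM at day 4 in muscle, but its difference from skin (-1.80 ± 0.57; edgeR, adjusted p = 0.0485) held with 2 of 14 libraries left out singly. Il1rn and Cxcl2† changed in opposite directions in skin and muscle. Il1rn changed by -0.66 in skin and 1.90 in muscle (difference -2.57 ± 0.23; edgeR, adjusted p = 1.54e-08), and Cxcl2† by -1.11 and 1.08 (difference -2.20 ± 0.32; edgeR, adjusted p = 3.47e-05). Vegfa, an angiogenic growth factor, had log2 changes of -0.47 in skin, not past the threshold, and 2.51 in muscle (difference -2.98 ± 0.49; edgeR, adjusted p = 0.000183). For Fcna, Folr2, Cx3cr1 and Apoe the change was higher in skin than in muscle. Fcna differed by 2.49 ± 0.53 (edgeR, adjusted p = 0.00219) and Folr2 by 2.25 ± 0.33 (edgeR, adjusted p = 4.34e-05). Cx3cr1 differed by 2.80 ± 0.37 (edgeR, adjusted p = 9e-06) and Apoe by 1.97 ± 0.39 (edgeR, adjusted p = 0.00118). For Cx3cr1 the difference came with a fall in muscle, to 36.2 CPM at day 7, against 259 CPM at day 4, and no called change in skin. Apoe also fell in muscle, to 7770 CPM at day 7, against 22380 CPM at day 4 (log2 change -1.53 ± 0.29; edgeR, adjusted p = 0.000494). Neither Apoe nor Folr2 had a called change in skin.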

How the data were processed

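Gene by sample tables of estimated counts from 3′ RNA-seq were used as the authors deposited them. Per the submitters' processing notes, STAR, featureCounts and limma were used with GRCm38 and GRCm39, without roles. Whether reads were collapsed by molecular identifier is not given in the sources used here. Of the non-zero values 19.4% were not whole, and counts were rounded. The 16 skin libraries in 4 groups were fitted together with edgeR 4.0.16 (R 4.3.3; TMM, filterByExpr, robust quasi-likelihood test, Benjamini-Hochberg over all genes, threshold 0.05). The difference from control skin was the interaction, and muscle was compared in a fit of 28 libraries. Alternatives used DESeq2 1.42.0 and limma 3.58.1. Scripts were tested on simulated counts. Genes with at least 0.05 of their 31-base words in another GENCODE M21 gene carry a dagger, a rule added after the data were seen. Genes named were chosen from the 12 largest changes in each direction and up to 3 members of each list and direction with the smallest p. Both kinds had to pass the threshold, without overlap of the libraries and with a mean of at least 5 CPM in a group. The choice also took in the 6 largest differences of each other comparison and direction, and a panel. Pdcd1lg2, Csf1, Nfkbia, Tnfaip3, Ccr3, Siglecf, Il5ra, Mcpt8 and the marker genes Cd207 and Pdgfrb were added after their values were seen. Members, lists and panel were chosen with earlier results of these data known. Replicate numbers did not pair samples (correlations of deviations -0.0439 to -0.0132). Intervals and tests cover counting error and the spread between libraries. Bone libraries entered 1 alternative fit. A gene of the panel is not reported here.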

Additional observations from a re-analysis of the deposited data

Results flagged for a closer look

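In 5 of 136 groups of 4 libraries a library stood apart from the other 3 by a gap above Dixon's critical value, where chance gives about 1 in 20. These were Mgl2† in replicate 2 of Treg-depleted day 4 (158.1 CPM), Igf1 in replicate 4 of day 7 (467.3 CPM), Clec4e in replicate 4 of day 7 (135.8 CPM), Ly6c2† in replicate 1 of day 4 (1554 CPM) and Hfe† in replicate 1 of day 4 (29.09 CPM).

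The change between day 7 and day 4 differed between depleted and control skin, in edgeR's test of the difference itself, for 18 printed genes. On the log2 scale, depleted minus control, the difference was 2.785 for Retnla†, 2.5214 for Ear2†, 2.5869 for Ear1†, 5.8358 for Rnase2a†, 1.591 for Mgl2†, 1.6053 for Batf3, 2.5002 for Fcna, 1.2299 for Fcgrt and 1.6314 for Folr2. It was 1.4565 for Tyms†, 1.8559 for Top2a and 3.5832 for Mfap4, and below 0 for Tnf (-2.1381), Clec4e (-1.705), Il1rn (-0.8656), Hspa1a† (-1.0012), P2rx1 (-4.3733) and Sytl1 (-4.5463).

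The change in depleted skin differed from that in depleted muscle for the 10 genes compared with muscle above. On the log2 scale, skin minus muscle, the difference was -1.8008 for Retnla†, -2.3649 for Ear2†, -1.2689 for Mgl2†, -2.1982 for Cxcl2†, -2.5698 for Il1rn and -2.984 for Vegfa. It was 2.4901 for Fcna, 2.2456 for Folr2, 2.8037 for Cx3cr1 and 1.9697 for Apoe. Other printed genes also differed past the threshold, among them Clec4e (-1.7773), Ccl17 (-2.3074), Arg1 (-2.2727) and C1qa (1.1857), which were not compared with muscle above.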

How the results depend on the processing

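The count of 330 genes changed in depleted skin was 632 with no filter on low counts, 509 with DESeq2 and 212 when the 2 groups were fitted alone, and it ranged from 205 to 365 with single libraries left out. The count of 107 differences from control skin was 319 with no filter, 264 with DESeq2, 186 in the fit with muscle and 170 without replicate 3 of both depleted groups, an alternative chosen after seeing the data. It was 81 with library-size scaling, and ranged from 68 to 162 with single libraries left out. The Rn18s-rs5 covariate gave 112, with 66.4% of the 107 kept. The 1306 differences from muscle ranged from 880 to 1399 with single libraries left out, and were 1532 with DESeq2, 1420 with library-size scaling and 1401 with no filter. Lower counts included 1166 in the fit of all 12 groups and 956 with the Rn18s-rs5 covariate, which kept 62.7% of the 1306. Library-size scaling moved the share of calls higher in skin than in muscle to 57.4%, against 39.7%, and the Rn18s-rs5 covariate moved the share of higher differences from control skin to 42%, against 30.8%. With a replicate block the counts were 358, 132 and 1304, although the numbers were not found to pair the samples. No printed call changed sign under the alternatives run, but some values that had not passed the test did, among them the Ccr2 change (-0.22 to 0.015 with single libraries left out) and the median of the interferon gamma list (-0.13 to 0.0975). Of 47 printed calls between the days 44 held with every single library left out and 42 under every other alternative. Of 18 differences from control skin these numbers were 15 and 14, and of the 10 listed differences from muscle 9 and 8. The Retnla† difference from muscle held in 2 of 14 and 3 of 8. Low counts limit Mfap4, P2rx1 and Sytl1, whose lowest groups averaged 0.38, 2.18 and 1.00 CPM. Causes were not tested.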
